A study of Arabidopsis thaliana with 6 samples.

Results

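AT5G20790, AT3G43110, AT1G23140, AT1G67920 and AT1G67600 are 5 Arabidopsis thaliana genes that had been picked because their leaf transcripts are high in the phosphate-deficient mutant pho1 and because little has been written about their products. They were found by the probe sets that read them out, and each of the 5 had a single probe set listed, out of 13333 genes with a named probe set in all. The values that chose them are those of the pho1 and wild-type comparison itself, so their levels are given as a description and carry no test. RNA was taken from rosette leaves of wild-type Col-2 plants (3 arrays) and of pho1 plants (3 arrays), labelled with biotin and hybridised to ATH1 arrays, which give a MAS5 signal in linear units for each probe set, the short probes that together read out a transcript. The pho1 mutant is a chemically induced (EMS) mutant in the Col-2 background, and neither its lesion nor any phosphate measurement of the leaves is given in the labels. All plants, at growth stage 3.90, grew at 24 °C with 16 h of light and 80% humidity on MS medium with 1% sucrose and 0.8% agar. Both groups therefore received the same nutrients, and no array comes from plants on a medium low in phosphate. The labels do not say whether the 3 samples of a group came from separate plants, so the spread between them may be technical.

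As background, PHO1 exports phosphate from the cells around the root vasculature into the xylem, and plants that lack it take up phosphate but deliver too little of it to the shoot. Arabidopsis shoots short of phosphate switch on a transcript programme under PHR1-type transcription factors, which SPX proteins hold back while phosphate is plentiful. It includes phosphatases, enzymes that replace phospholipids by other lipids, and a number of genes whose products have no settled function. Whether the 5 genes belong to this programme was not tested here. Of the 5, AT1G23140 encodes a small protein of the C2 family, whose domain can bind membranes in response to calcium, and AT1G67600 a protein related to acid phosphatases and vanadium-dependent haloperoxidases. For AT5G20790, AT3G43110 and AT1G67920 the reference gene table holds a locus number in place of a name, and no role is given to them here.

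The arrays were alike in level but not in every respect. Median signals lay between 41.4 and 46.6. Both replicate 1 arrays stood apart by 12 control probe sets of the dap, lys, phe and thr spike-ins, with medians of 2.25 in wild type and 2.1 in pho1 against 36.2 to 76.3 on the other arrays. The tissue label was checked against leaf markers, of which 6 of 15 had a named probe set. Their summed signal was 16148 to 27292 in wild type and 14123 to 25791 in pho1, and none was at 0. Between groups 0 of the 6 passed (limma), and 0 with the replicate block, where 2.96% and 6.64% of all tested probe sets passed. An unadjusted p under 0.05 was found for 0 of the 6 and for 2412 of all 15922. In replicates 2 and 3 alone 2 passed, against 19% of all. These were SBPASE (-0.80, limma adjusted p = 0.019) and HPR (-0.71, 0.018), both lower in pho1. A count of 0 among 6 is near the share over all and is not read as likeness of the tissue. The 2 named root markers of 8, PYK10 and EXPA7, summed to 186.1 to 416.7 in wild type and 305.4 to 575.5 in pho1. The sum is mostly PYK10, and the 2 went opposite ways. PYK10 had means of 253.9 in wild type and 435.6 in pho1 and was not called, and the dim EXPA7, not tested, had 20.9 and 13.2. The single named guard cell marker, FAMA, lay between 54.0 and 69.3 in wild type and between 66.9 and 91.7 in pho1, and the single named trichome marker, TRY, between 26.5 and 38.4 and between 12 and 25.7. Their part in the differences below was not tested. In whole leaves, fewer cells of a type and less RNA per cell cannot be told apart.

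The transcript of AT5G20790 was close to the bottom of the scale in wild type and bright in pho1. Its wild-type signals were 1.9, 1.4 and 23.2 in replicates 1, 2 and 3. Its pho1 signals were 816.6, 1612 and 2175. The wild-type array of replicate 3 stood above the other wild-type arrays, yet the lowest pho1 array was 35.2 times as bright as it, so the groups did not overlap. The ratio of pho1 to wild type within a replicate number was 429.8, 1151 and 93.7. The wild-type signals under these ratios spanned 16.6-fold and the pho1 signals 2.66-fold. After an offset of 10 signal units had been added before taking log2, which damps the noise of dim values, the difference was 6.44 ± 0.48 (pho1 minus wild type, SE, n = 3 each). By replicate number it was 6.12, 7.15 and 6.04 on this scale, and it ranked 2 among the differences of all 15922 probe sets tested.

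AT3G43110 was the gene whose difference varied most with the replicate number. Its signals were 44.3, 19.8 and 18.3 in wild type and 260.3, 443.5 and 618.1 in pho1, for replicates 1, 2 and 3. In replicate 1 the wild-type array was the highest of its group and the pho1 array the lowest of its own, and the groups were still 5.88-fold apart at their nearest values. The log2 difference was 2.32 in replicate 1, 3.93 in replicate 2 and 4.47 in replicate 3, with a mean of 3.57 ± 0.35 (SE, n = 3 each). Both replicate 1 arrays are those with the low spike-in signal; without them the difference was 4.2 ± 0.18. Of the 5 genes it also had the highest mean signal in wild type, 27.5 ± 14.6 (SD, n = 3), although signals of different probe sets are not on a shared scale.

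AT1G23140, the C2 family gene, gave nearly the same difference in each replicate number while its level did not stay the same. Its signals were 8, 13.4 and 22.1 in wild type and 244.6, 331.0 and 470.7 in pho1. In both groups the replicate 3 array was the brightest and the replicate 1 array the dimmest. The log2 differences were 3.82, 3.87 and 3.90, with a mean of 3.86. The SE of 0.29 comes from the spread within groups, 0.42 in wild type and 0.46 in pho1 (SD of log2 values, n = 3 each), which the comparison within replicate numbers does not show. The lowest pho1 signal was 11.1 times the highest wild-type signal.

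AT1G67600, the gene related to acid phosphatases, and AT1G67920 had the smallest spread within groups of the set. Their differences by replicate number varied more than those of AT1G23140. The signals of AT1G67600 were 9.1, 9.1 and 11.4 in wild type and 144.5, 180.7 and 235.8 in pho1. The wild-type arrays spanned 1.25-fold and the pho1 arrays 1.63-fold, with the lowest pho1 signal 12.7 times the highest wild-type one. Its log2 difference was 3.29 ± 0.20 (SE, n = 3 each), and 3.02, 3.32 and 3.52 by replicate number. AT1G67920 had signals of 17.5, 18.5 and 12.8 in wild type and 217.1, 195.1 and 286.0 in pho1. Here the pho1 array of replicate 2 was the lowest, where in the other 4 genes it was that of replicate 1. Its log2 difference was 3.20 ± 0.19 (SE, n = 3 each), and 3.05, 2.85 and 3.70 by replicate number, and the groups stood 10.5-fold apart at their nearest values.

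**Figure D1:**
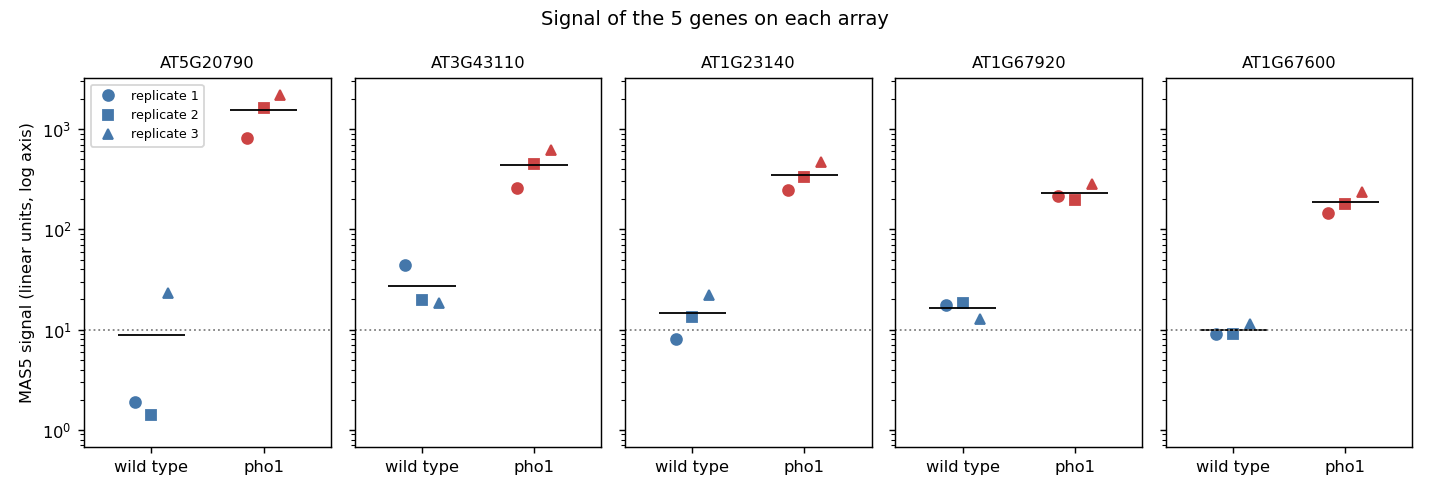
Each panel plots the MAS5 signal of a gene (linear units on a log axis) on the 3 wild-type arrays (blue) and the 3 pho1 arrays (red), with circles, squares and triangles for replicates 1, 2 and 3, black lines at the group means and a dotted line at the offset of 10. In each of the 5 genes all pho1 points lie above all wild-type points, and the pho1 triangle is the highest.

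All 5 genes had the 3 pho1 arrays wholly above the 3 wild-type arrays, which 10.8% of the tested probe sets had too. Nothing is read from this count, since the genes were chosen on this difference. All 5 passed the filter on dim probe sets, a mean level equal to a signal of 17.4, but the wild-type mean of 4 of them lay below that level, so these 4 passed only through their pho1 arrays. The exception was AT3G43110. In wild type the coefficient of variation ran from 13.5% for AT1G67600 to 140.9% for AT5G20790, and in pho1 from 20.4% for AT1G67920 to 44.5% for AT5G20790.

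**Figure D2:**
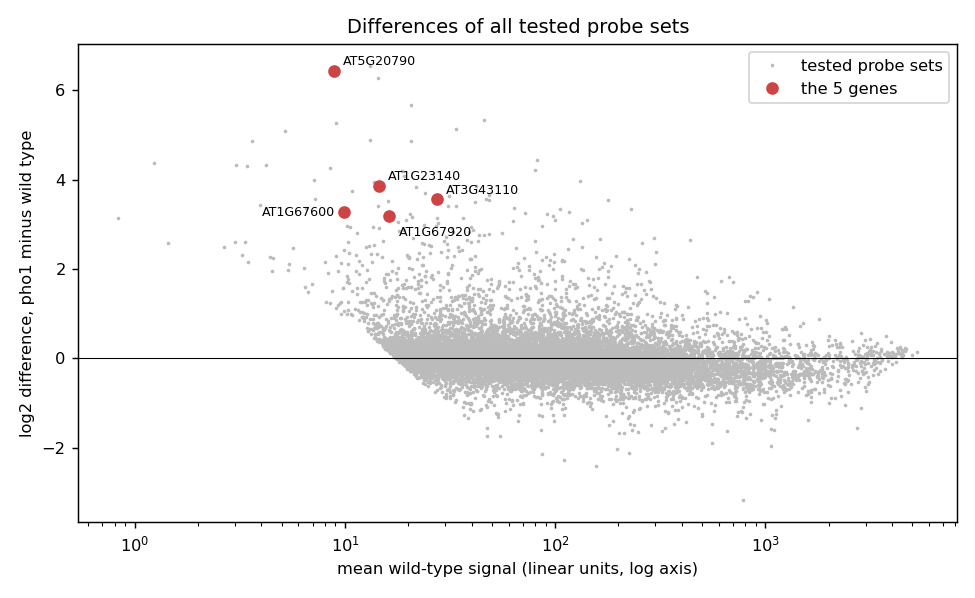
Each grey point is a tested probe set, with its mean wild-type signal (linear units, log axis) on the horizontal and its log2 difference, pho1 minus wild type, on the vertical axis; the 5 genes are red. They lie at the dim end in wild type, between 8.83 and 27.5, with AT5G20790 at 6.44 well above the other 4, which lie between 3.20 and 3.86; the slanted lower left edge is the filter on dim probe sets.

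As a description of the chosen values, the mean differences can be put in order. AT5G20790 lay above AT1G23140 by 2.57 on the log2 scale, and in 3 of 3 replicate numbers, by 2.30, 3.29 and 2.14; its wild-type signals of 1.9 and 1.4 enter this gap, whose size depends on the offset. Lower in the order, the sign of each gap changed with the replicate number. AT1G23140 lay above AT3G43110 by 0.29 in the mean and in 1 of 3 replicate numbers, AT3G43110 above AT1G67600 by 0.29 and in 2 of 3, and AT1G67600 above AT1G67920 by 0.09 and in 1 of 3. These are gaps between log2 differences, not between levels, and no test was made of them.

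**Figure D3:**
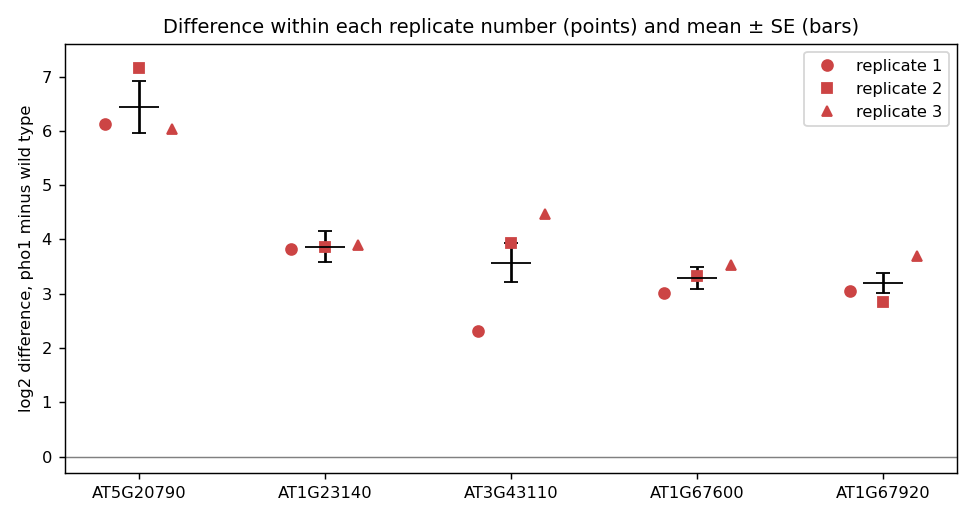
Points give the log2 difference, pho1 minus wild type, within each replicate number (circle 1, square 2, triangle 3), and black bars the mean ± SE over 3 arrays per group. The 3 points of AT1G23140 lie within 3.82 to 3.90, while those of AT3G43110 run from 2.32 to 4.47.

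Because the wild-type signals are dim, the size of each difference depends on the offset. With an offset of 1 signal unit AT5G20790 stood at 8.01 ± 0.82 and with 20% of the trimmed mean at 5.72 ± 0.39 (SE). AT1G67600 moved from 4.09 to 2.77, AT1G23140 from 4.55 to 3.39, AT1G67920 from 3.76 to 2.79 and AT3G43110 from 3.98 to 3.24 over the same range. AT5G20790 stayed the highest of the 5 at every offset. The order of the other 4 did not hold, as AT1G67600 lay above AT3G43110 at 1 unit and below AT1G67920 at 20%.

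**Figure D4:**
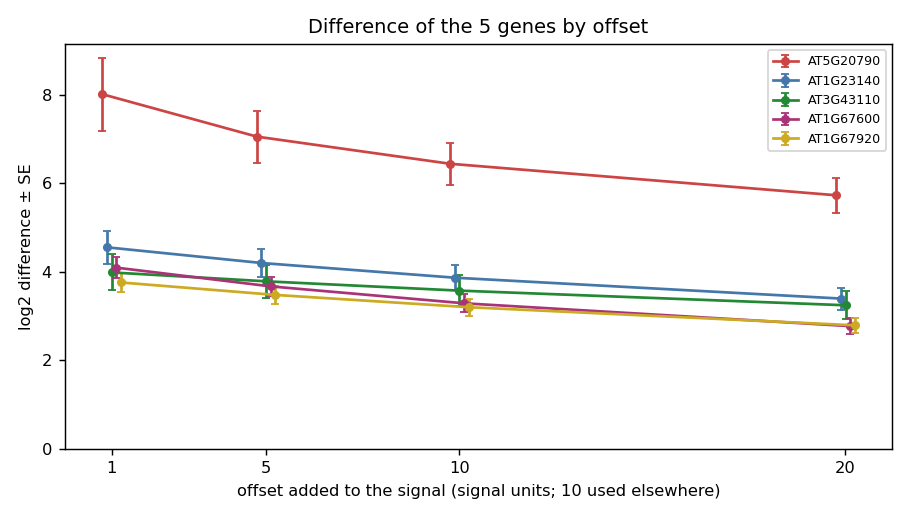
The horizontal axis is the offset added to every signal before log2 (signal units), the vertical axis the log2 difference, pho1 minus wild type, with bars for the SE. All 5 lines fall as the offset grows, from 8.01 to 5.72 for AT5G20790, and those of the lower 4 stay close together.

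Among the pho1 arrays, that of replicate 3 gave the highest signal for 5 of the 5 genes and that of replicate 1 the lowest for 4. The replicate 3 signal was 1.32 to 2.66 times the replicate 1 signal, with a median of 1.92. Of the 417 probe sets that passed upward, 77.9% also had their highest pho1 signal in replicate 3, with a median ratio of 1.46, while over all tested probe sets the share was 31.4% and the median ratio 1.01. Of the 59 that passed upward by at least 3 on the log2 scale, 83.1% had it there, with a median ratio of 1.92. The 5 genes were chosen on the same difference that sorts out the 59 and the 417, so these shares are not independent of the 5. Nothing particular to the 5 genes is read from them.

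The profile of each gene over the 6 arrays was set against those of all other tested probe sets by the root mean square (RMS) distance of log2 values, each minus its own mean. AT1G67920 and AT1G67600 were the closest pair of the 5, 0.21 apart. Both were chosen for a large difference, and their differences were of like size (3.20 and 3.29). Their nearness is therefore a description only. AT1G67600 was also the nearest of the set to AT1G23140 (0.36) and to AT3G43110 (0.40). AT5G20790 lay at least 1.34 from each of the others, the size of its own difference being part of this distance.

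Outside the set, 10 named genes made up the 3 nearest of each. Nearest to AT1G67600 was AT3G44510 (RMS distance 0.14), which was listed at signals of 0.6, 1.5 and 0.4 in wild type and 58.6, 88.2 and 122.2 in pho1. Nearest to AT1G67920 was AT5G09570 (0.15), at 43.0, 35.9 and 30.2 in wild type and 312.7, 367.9 and 547.2 in pho1, which was nearest to AT3G43110 as well (0.33). For AT1G23140 it was SAL2, a relative of the SAL1 nucleotide phosphatase, at a distance of 0.19. As in AT1G23140, the highest wild-type signal of SAL2 was on the replicate 3 array (20.2, against 3.00 and 9.30), and so was its highest pho1 signal (380.1, against 214.3 and 203.6). AT5G20790 had no neighbour that close, AT1G08310 being the first at 0.82. The others were AT3G03790, AT3G60420, AT1G57630, AT5G63130, AT1G19200 and GAT1_2.1. Likeness here rests mainly on a group difference of a like size, and all points share the same 6 arrays.

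Genes of the phosphate starvation programme were taken from a list of 82, sorted by role, that leaves out the 5 genes. Of these 82, 11 had a named probe set and 9 were tested with 10 probe sets. Of these 10 probe sets 3 rose and 2 fell in pho1, with a median log2 difference of 0.60, where 2.96% of all 15922 tested passed (2.62% upward and 0.345% downward) and their median was -0.02 (limma, adjusted p under 0.05). With the replicate number as a block 6 of the 10 passed, against 6.64% of all. The list was drawn up with earlier results of these data known. Its share of calls is therefore a description and not independent support. The 3 that rose encode enzymes: PAP1, a purple acid phosphatase, SAL2, and GAT1_2.1, of the glutamine amidotransferase class. The wild-type means of GAT1_2.1 (3.03) and SAL2 (10.8) lay below the filter limit of 17.4. These 2 passed the filter only through their pho1 arrays, which limits what their calls show. The log2 differences of PAP1, SAL2 and GAT1_2.1 were 3.50 ± 0.22, 3.76 ± 0.34 and 4.33 ± 0.17 (SE, n = 3 each). All 3 lay below AT5G20790 and above AT1G67920 (3.20) and AT1G67600 (3.29). AT3G43110 (3.57) lay above PAP1, and AT1G23140 (3.86) above PAP1 and SAL2. This order depends on the offset: at 1 signal unit AT1G67600 stood at 4.09 and PAP1 at 3.78. For GAT1_2.1 it also depends on the probe set. Another one listed for this gene was too dim to be tested. Its signals were 2.9, 10.2 and 6.4 in wild type and 20.7, 22.1 and 20.3 in pho1. Its log2 differences by replicate number were 1.25, 0.67 and 0.89. Like the 5 genes, SAL2 (214.3, 203.6 and 380.1) and the tested GAT1_2.1 probe set (218.5, 254.2 and 284.3) had their highest pho1 signal in replicate 3. PAP1 had its lowest there, with little spread between arrays (568.7, 580.6 and 526.3). The 2 that fell are methyltransferases of phosphocholine synthesis, NMT3 at -3.17 ± 0.38 and PMEAMT at -1.29 ± 0.21; the PMEAMT call was lost without wild type replicate 2, pho1 replicate 2 or pho1 replicate 3.

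Of 21 signalling loci on that list 3 were tested, with 4 probe sets, and of 16 transport loci 1; the other loci have no tested value here. These 5 probe sets had differences under 1 on the log2 scale, and none passed (limma; 1 at an unadjusted p under 0.05). LPR2, a multicopper oxidase that slows root growth at low phosphate, had signals of 302.8, 157.1 and 198.3 in wild type and 350.7, 327.3 and 418.0 in pho1. Its groups did not overlap, but its difference of 0.75 ± 0.25 did not pass (limma adjusted p = 0.18); it passed without wild type replicate 1 (0.034) and in replicates 2 and 3 alone (0.0087). PHT5;1, a transporter that loads phosphate into the vacuole, differed by 0.44 ± 0.21 (adjusted p = 0.38, and 0.021 in replicates 2 and 3 alone). WRKY6, a repressor of PHO1 transcription, was at 0.99 ± 0.46 and did not pass (limma adjusted p = 0.37). It passed once the replicate block was fitted (0.034) and without pho1 replicate 1 (0.049). Its wild-type mean signal of 12.8 lay below the filter limit of 17.4. The probe sets of SIZ1, a SUMO ligase, gave 0.08 and -0.16. In replicates 2 and 3 on their own 8 of the 10 probe sets passed, where 19% of all tested did.

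Further members of the C2 family and of the family related to acid phosphatases were looked at next; their loci were put down from general knowledge after the annotation had been seen. Of 9 further C2 family loci 4 were tested, and of 4 further loci related to acid phosphatases 4. None of these 8 passed (limma), and their median difference was 0.20. Of the 8, 3 had an unadjusted p under 0.05, 1 passed with the replicate block and 3 in replicates 2 and 3 alone. Over all 15922 tested, 2.96% passed and 2412 had an unadjusted p under 0.05. With the block 6.64% of all passed, and in replicates 2 and 3 alone 19%. A count of 0 among 8 is near the share over all and is not read as a result about the families. The C2 gene AT1G70810 came nearest to AT1G23140, with signals of 170.2, 54.5 and 77.6 in wild type and 225.7, 179.6 and 277.5 in pho1. Its lowest pho1 array was just above its highest wild-type array, that of replicate 1. The difference was 1.22 ± 0.36 (adjusted p = 0.14, 0.042 with the replicate block, 0.014 without wild type replicate 1 and 0.0049 in replicates 2 and 3 alone), against 3.86 for AT1G23140. AT2G01540 differed by 0.60 (adjusted p = 0.38, and 0.026 in replicates 2 and 3). On the AT1G67600 side, AT3G12685 was lower on each pho1 array than on any wild-type array, with a difference of -0.62 ± 0.16 (adjusted p = 0.093; 0.047 without pho1 replicate 1 and 0.0094 in replicates 2 and 3 alone). AT3G61770 was higher on each pho1 array, by 0.53 ± 0.16 (adjusted p = 0.16). Differences between relatives and the 5 genes were not tested.

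The last comparison asked whether the genes next to each of the 5 on the chromosome differed too. Of the 30 annotated loci within 3 places on either side, 14 had a named probe set and 11 were tested, none of them beside AT3G43110. In pho1 1 of the 11 rose and none fell, and their median difference was -0.00032, against 2.96% called and a median of -0.02 over all tested. The gene that rose was AT1G23120, 2 places from AT1G23140, with signals of 21.9, 2.9 and 10 in wild type and 60.5, 56.7 and 78.7 in pho1. Its wild-type mean of 11.6 lay below the filter limit of 17.4, so it passed the filter only through its pho1 arrays. Its difference was 1.89 ± 0.32 (limma adjusted p = 0.020; 0.0085 with the replicate block). Leaving out pho1 replicate 2 (0.082), pho1 replicate 3 (0.11) or wild type replicate 3 (0.059) ended that call. AT1G23130, which lies between them, was bright in both groups, at 1273 ± 246 in wild type and 1340 ± 360.3 in pho1 (SD, n = 3 each), and differed by 0.06 ± 0.26. AT1G67600 and AT1G67920 have 44 annotated loci between them, of which 24 had a named probe set and 18 probe sets were tested. None of these 18 passed (limma), and their differences ran from -0.85 to 1.73. Of the 18, 4 had an unadjusted p under 0.05, 1 passed with the replicate block and 3 in replicates 2 and 3 alone. Over all 15922 tested, 2412 had an unadjusted p under 0.05, and 6.64% and 19% passed in those 2 fits. A count of 0 among 18 is near the 2.96% over all and is not read as a result about this stretch.

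**Figure D5:**
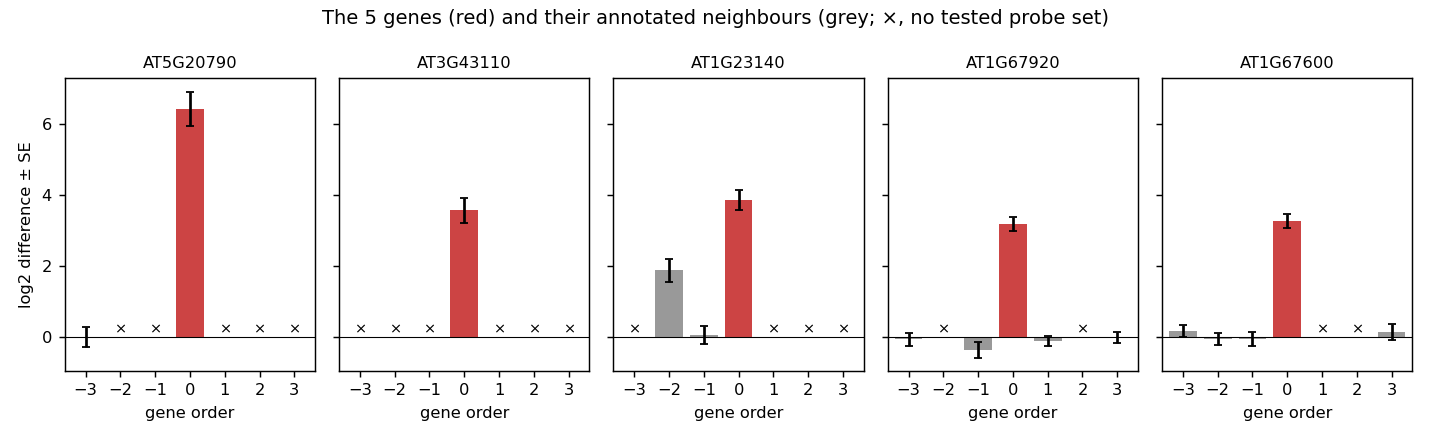
Each panel shows the log2 difference, pho1 minus wild type, with its SE, of a gene (red, at 0) and of the annotated genes up to 3 places before and after it in chromosome order (grey); crosses mark places with no tested probe set. Beside AT1G23140, AT1G23120 stands at 1.89 and AT1G23130 near 0, and the other grey bars lie within -0.34 to 0.18.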

How the data were processed

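The deposited values are linear signal intensities for each probe set. MAS5 produced them, per the submitters' processing notes, with a version and a scaling target not given in the sources used here. Of 22810 probe sets 64 were controls. As deposited, each array had a trimmed mean (2% left out at each end) of 100.01. Arrays were rescaled to it, an offset of 10% of it was added, and log2 was taken; fold changes on this scale understate the change of dim probe sets. The dimmest 30% by mean log2 value were left out and the other 15922 tested two-sided with limma 3.58.1 (R 4.3.3; moderated variances that follow an intensity trend), with Benjamini-Hochberg adjustment over all of them and a threshold of 0.05. The number of arrays limits the precision, and detection calls were not used. Genes were named through the platform annotation, updated through a RefSeq gene table of TAIR10.1; 13484 probe sets had 1 gene. The procedure was tested on simulated data whose arrays were drawn independently, with no effect of the replicate number. That test therefore does not cover the correlations between samples given below. Plots were drawn with matplotlib 3.10.9.

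The 5 genes and the pathway list were chosen with earlier results of these data known. Named genes are the 5, the tested pathway genes, tested neighbours and relatives, and the 3 genes with the nearest profile; not every neighbour and relative is named. Deviations from the group means correlated at 0.42, 0.22 and 0.39 between samples of the same replicate number, which the labels do not explain; the reported fit has no block, and a fit with the replicate number as a block is an alternative. A value of 0.33 was also found for pho1 replicate 2 with wild type replicate 3, which do not share a number. A protein comparison for homologs was planned; no protein table was used here, and a list of relatives, added after the annotation was seen, took its place.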

Additional observations from a re-analysis of the deposited data

How the results depend on the processing

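The differences of the 5 genes kept their sign under each of the 15 alternatives run for each. They moved by more than 1 SD between replicates mainly with the offset: at 1 signal unit AT5G20790 was at 8.01, AT1G23140 at 4.55, AT1G67920 at 3.76 and AT1G67600 at 4.09; at 5% of the trimmed mean AT1G67920 was at 3.47 and AT1G67600 at 3.67; at 20% AT1G23140 was at 3.39, AT1G67920 at 2.79 and AT1G67600 at 2.77. AT3G43110 moved to 4.2 in replicates 2 and 3 alone, a setting chosen after the data were seen. Leaving out 1 array gave 6.13 to 6.94 for AT5G20790, 3.29 to 3.90 for AT3G43110, 3.63 to 4.09 for AT1G23140, 3.05 to 3.31 for AT1G67920 and 3.11 to 3.45 for AT1G67600.

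Of all probe sets 472 passed; the count was 289 with no filter, 3789 with array weights, 167 at a threshold of 0.01, 1057 with the replicate block, 3021 in replicates 2 and 3 and 161 to 1040 with 1 array left out. Other scalings moved the median of all differences from -0.02 to at most -0.09. The 5 calls among pathway probe sets became 8 with array weights and 8 in replicates 2 and 3, and 4 to 6 with 1 array left out. The single call among chromosomal neighbours, AT1G23120, became 0 at an offset of 1 signal unit, with no filter and at a threshold of 0.01, and 0 to 1 with 1 array left out. With the filter at the 50th percentile the count was also 0, but there AT1G23120 was filtered out and not tested. The 0 calls among relatives became 4 with array weights, 1 with the replicate block, 3 in replicates 2 and 3 and 0 to 1 with 1 array left out. The dimmer SIZ1 probe set turned from -0.16 to 0.11 with array weights, 0.12 in replicates 2 and 3, 0.56 without pho1 replicate 1, 0.07 without wild type replicate 2 and 0.06 without wild type replicate 3, never past the threshold, and lay at -0.60 without wild type replicate 1. The causes were not tested. The replicate block changed no call of a named gene other than those of WRKY6 and AT1G70810, given above. The comparison of homologs by protein sequence was not run. The wild-type signals of 4 of the 5 genes lay near or below the limit for dim probe sets, which sets how well their ratios are known.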
